A study of Mus musculus with 28 samples.

Results

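Axon-TRAP, the purification of ribosome-bound mRNA from the axons of retinal ganglion cells in the living mouse, was examined here for 9 genes of axon survival, axon degeneration and the caspase pathway, out of the 23995 genes that the FPKM tables list. The genes were taken as a list of names, and no threshold on a measured value was applied. Of these, 4 act on the side of survival (Nmnat2, Impa1, Bcl2l1 and Bcl2l2) and 5 on the side of degeneration (Sarm1, Map3k12, Bax, Casp9 and Casp6). Ribosomes of C57BL/6 mice were tagged by crossing the RiboTag line, whose ribosomal protein Rpl22 gains an HA tag after recombination, with Pax6-alpha-Cre. Ribosome-bound mRNAs were immunopurified from the superior colliculus (SC), where the axons end, of Cre-positive and Cre-negative littermates, and from the eye (retina below) of Cre-positive animals, which holds the cell bodies. Each of the 3 sources was sampled on embryonic day E17.5, on postnatal days P0.5 and P7.5, and in adults, with 2 libraries per group and 24 libraries in all. A ribosome run-off experiment on adult tissue added 4 libraries, in which each of Cre-positive SC and retina gave 1 untreated and 1 treated library. In the SC of a Cre-positive animal the tagged ribosomes reach the tissue through axons from the eye, and the Cre-negative SC, which carries the RiboTag allele but no Cre, measures what the antibody and beads bring down without a tag. Pax6-alpha-Cre also recombines in retinal neurons other than ganglion cells, tissue of several animals was pooled for each library, and the cDNA was amplified by PCR before sequencing.

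An injured or pruned axon is taken apart by its own enzymes. NMNAT2 makes NAD in the axon and has to be resupplied continuously because it is short-lived, and as long as it is present it holds SARM1, an enzyme that destroys NAD, inactive. A second route runs through the mitochondrion: the dual leucine zipper kinase DLK (encoded by Map3k12) feeds into JNK signaling, BAX permeabilizes the outer mitochondrial membrane unless BCL-XL (Bcl2l1) or BCL-W (Bcl2l2) restrains it, and the release of cytochrome c lets APAF1 activate caspase-9, which cleaves executioner caspases. Caspase-6 is the executioner best known from developing axons deprived of trophic factor. Impa1 encodes an inositol monophosphatase whose mRNA is known as a locally translated survival transcript of sympathetic axons. The comparisons below ask whether these mRNAs were bound to ribosomes in axons above the Cre-negative background, and whether they changed between developing and adult axons.

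In Cre-positive SC the degeneration genes Bax and Sarm1 stood at their highest levels of any SC group at P0.5 and had fallen by P7.5 and in the adult. Bax was the only 1 of the 7 members tested that passed the test against Cre-negative SC at P0.5, and no member did at the later stages or over all stages together. Nmnat2 was above 0 in all SC libraries of the 3 developing stages and passed no test of stage or Cre. Bcl2l1 had the highest FPKM of the 9 members in every library except P7.5 Cre-positive SC replicate 2, where Nmnat2 was higher, and it too fell in Cre-positive SC after P0.5. Bcl2l2 was listed at 0 in all 24 libraries and Impa1 in all 16 SC libraries.

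Values are FPKM, fragment numbers scaled to transcript length and to the size of the library, and tests were made with limma on log2(FPKM + 1) over all genes that reached 1 FPKM in at least 2 libraries of a fit. This left 7 of the 9 members in the SC fit and in the fit of Cre-positive SC with retina, and 4 in the retina fit (Nmnat2, Bcl2l1, Sarm1 and Bax). Differences are given on that log2 scale with their SE, n = 2 libraries per group, and limma's p-values are Benjamini-Hochberg adjusted over all genes of a comparison, with a threshold of 0.05. A fit pools the spread over all its groups, so SE and p-values do not rest on the 2 groups compared alone. The study calls the libraries of a group biological replicates, and the labels do not name separate animals or litters. The p-values measure the spread between libraries within the groups of a fit, which may be in part technical. Between 1162 and 8769 genes were above 0 FPKM per library. The steps between low FPKM values gave an estimate of depth for 20 of the 24 libraries, from 515241 to 18299605 fragments. The adult Cre-positive SC libraries were estimated at 792058 and 1383864 fragments, and the correlation of replicates (Pearson's r of log2(FPKM + 1) across genes) was 0.951 to 0.967 in the P0.5 groups and as low as 0.486 in Cre-negative SC at E17.5. Genes that every cell uses were also listed at 0, Gapdh in 18 of 24 libraries and Ppia in 21, so a 0 is given below only as listed. Of 11 markers of retinal ganglion cells, 8 were above 0 in at least 1 Cre-positive SC library, and Pou4f3, Rbpms and Nefh were at 0 in all 8. In Cre-negative SC 7 of the 11 were above 0 in at least 1 library, so this count does not set Cre-positive SC apart from the background. All 11 were above 0 in at least 1 retina library.

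**Figure D1:**
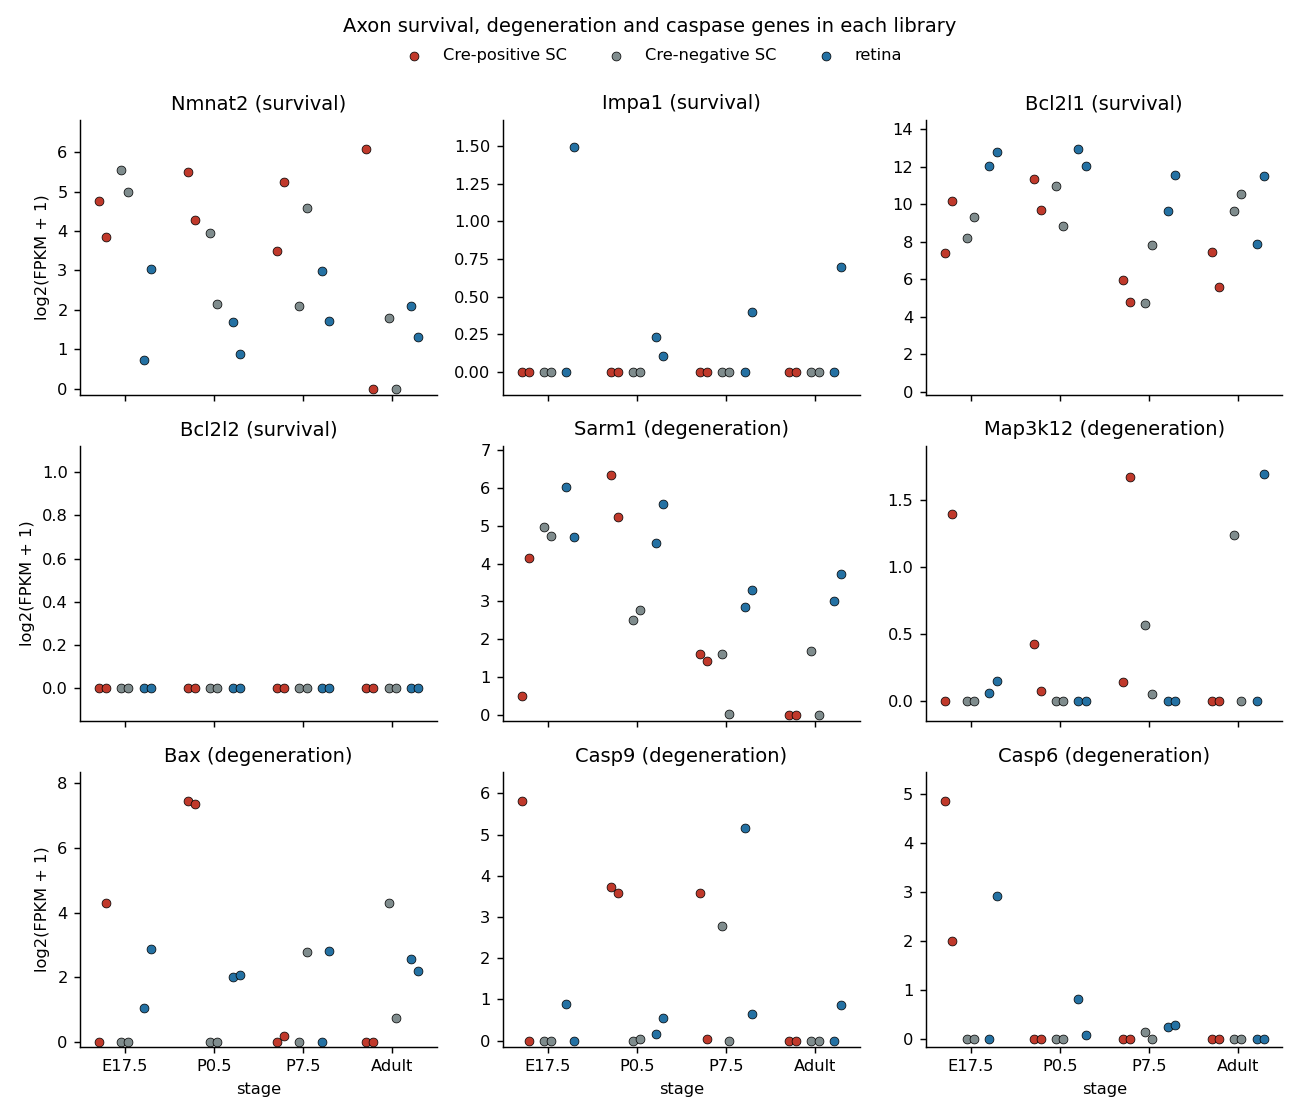
Level of each of the 9 genes as log2(FPKM + 1) (vertical axis, its range differs between panels) by stage (horizontal axis), with 1 point per library, for SC of either genotype and for retina. Bax at P0.5 stands at 173.6 and 162.9 FPKM in Cre-positive SC and at 0 in both Cre-negative SC libraries, Sarm1 is at 0 in both adult Cre-positive SC libraries, and Bcl2l2 is at 0 throughout.

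Nmnat2 (mm10 chromosome 1, 152954993 to 153119261, plus strand) encodes the short-lived axonal NAD synthase. In Cre-positive SC it stood at 26.1 and 13.3 FPKM at E17.5, 44.1 and 18.5 at P0.5, 10.3 and 37.0 at P7.5, and 66.8 and 0 in the adult. In Cre-negative SC it stood at 45.5 and 30.9 FPKM at E17.5, 14.6 and 3.42 at P0.5, 3.24 and 22.9 at P7.5, and 2.47 and 0 in the adult. The Cre-negative background was therefore above the Cre-positive values at E17.5, below them at P0.5 and overlapping with them at P7.5 and in the adult. Retina was below Cre-positive SC at the 3 developing stages and overlapped with it in the adult, at 0.668 and 7.27 FPKM at E17.5, 2.22 and 0.822 at P0.5, 6.95 and 2.27 at P7.5, and 3.30 and 1.49 in the adult. At P0.5 Nmnat2 differed by 1.84 ± 1.81 (SE) between Cre-positive and Cre-negative SC (limma, adjusted p = 0.616) and by 3.61 ± 1.71 between Cre-positive SC and retina (adjusted p = 0.131), and neither difference passed the threshold, although the latter did in a fit to that stage alone (adjusted p = 0.00573). Over all stages the difference from Cre-negative SC was 1.01 ± 0.90 (adjusted p = 0.618). The 2 adult Cre-positive libraries were far apart: the difference from Cre-negative SC, 2.15 ± 1.81 (adjusted p = 1), became -0.90 without replicate 1 and 5.19 without replicate 2. Likewise the change from P0.5 to the adult, -1.85 ± 1.81 (adjusted p = 0.554), became -4.89 without adult replicate 1 (adjusted p = 0.044) and 1.19 without adult replicate 2 (adjusted p = 0.738). A level of 3 fragments corresponds to 0.806 FPKM of Nmnat2 in adult replicate 2, the library where it was listed at 0.

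Bcl2l1 (chromosome 2, 152780668 to 152831728, minus strand) encodes BCL-XL, which restrains BAX, and was among the most abundant mRNAs of the retina, 9th of all genes in both P0.5 retina libraries. Retina held 4250.0 and 6983 FPKM at E17.5, 7776 and 4125 at P0.5, 779 and 3021 at P7.5, and 231 and 2872 in the adult. Cre-positive SC held 165 and 1164 FPKM at E17.5, 2563 and 823 at P0.5, 60.0 and 26.2 at P7.5, and 171 and 46.6 in the adult. Cre-negative SC, at 293 and 641, 1971 and 453, 25.3 and 228, and 787 and 1488 FPKM in the same order of stages, overlapped with Cre-positive SC at E17.5, P0.5 and P7.5 and lay above it in the adult. Within Cre-positive SC, Bcl2l1 fell by 5.16 ± 1.35 from P0.5 to P7.5 (adjusted p = 0.0144) and by 4.01 ± 1.35 from P0.5 to the adult (adjusted p = 0.0435). The interaction of stage with Cre was -1.55 ± 1.91 for the first interval (adjusted p = 0.74) and -4.20 ± 1.91 for the second (adjusted p = 0.158), so that a fall beyond that of Cre-negative SC was not shown. The fall to P7.5 was no longer past the threshold without P0.5 replicate 1 (-4.34, adjusted p = 0.187) or P7.5 replicate 2 (-4.57, adjusted p = 0.0895). The fall to the adult was lost without any 1 of the 4 libraries, at -3.19 without P0.5 replicate 1 (adjusted p = 0.34), -4.83 without P0.5 replicate 2 (adjusted p = 0.0874), -4.93 without adult replicate 1 (adjusted p = 0.0542) and -3.08 without adult replicate 2 (adjusted p = 0.232), and with no filter on low values (adjusted p = 0.0767). In the adult the difference of Cre-positive from Cre-negative SC was -3.58 ± 1.35, lower in 2 of 2 libraries, which did not pass after adjustment (adjusted p = 1).

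Bcl2l2 (chromosome 14, 54883377 to 54888234, plus strand) encodes BCL-W, a further inhibitor of BAX, and was listed at 0 FPKM in all 24 libraries. The run-off libraries described below did hold reads of Bcl2l2. Its span overlaps in the annotation with Gm20521 on the same strand. Impa1 (chromosome 3, 10311956 to 10331439, minus strand), the inositol monophosphatase, was above 0 in 5 retina libraries, at 1.81 FPKM in E17.5 replicate 2, 0.173 and 0.0753 at P0.5, 0.317 in P7.5 replicate 2 and 0.622 in adult replicate 2. Its span overlaps with Gm38303 on the same strand. Neither gene could be tested.

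Sarm1 (chromosome 11, 78472330 to 78497754, minus strand) encodes the NAD-degrading executioner of axon degeneration. In Cre-positive SC it stood at 0.426 and 16.7 FPKM at E17.5, 79.9 and 36.6 at P0.5, 2.04 and 1.67 at P7.5, and 0 in both adult libraries. In Cre-negative SC it stood at 30.3 and 25.7 FPKM at E17.5, 4.74 and 5.82 at P0.5, 2.04 and 0.0193 at P7.5, and 2.2 and 0 in the adult. The 2 sources therefore changed places: Cre-positive SC was below the background at E17.5, above it at P0.5, overlapping with it at P7.5 and not above it in the adult. Retina held 64.1 and 24.8, 22.3 and 46.4, 6.18 and 8.92, and 6.99 and 12.2 FPKM from E17.5 to the adult, and was above Cre-positive SC in every library except at P0.5, where the ranges overlapped.

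The order of the mean Sarm1 levels in Cre-positive SC was P0.5, E17.5, P7.5 and adult. The place of E17.5 above P7.5 rested on E17.5 replicate 2 (16.7 FPKM), as replicate 1 (0.426 FPKM) lay below both P7.5 libraries. That pair of stages was not tested. Of the neighbors tested, the rise from E17.5 to P0.5 was 3.46 ± 1.21 (adjusted p = 0.0588) and the difference between P7.5 and the adult was -1.51 ± 1.21 (adjusted p = 1), and neither passed. Sarm1 fell by 4.28 ± 1.21 from P0.5 to P7.5 (adjusted p = 0.0215) and by 5.79 ± 1.21 from P0.5 to the adult (adjusted p = 0.00388). The change from E17.5 to P0.5 was 5.67 ± 1.71 greater in Cre-positive than in Cre-negative SC (adjusted p = 0.0309). The corresponding interactions for the falls were -2.45 ± 1.71 to P7.5 (adjusted p = 0.422) and -3.98 ± 1.71 to the adult (adjusted p = 0.135). At P0.5 alone, Sarm1 was 3.14 ± 1.21 above Cre-negative SC in 2 of 2 libraries, with an adjusted p of 0.074 that a fit to that stage alone lowered to 0.0136. At E17.5 the difference was -2.52 ± 1.21 (adjusted p = 0.585), and past the threshold without Cre-positive replicate 2 (-4.34, adjusted p = 0.0482).

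The Sarm1 calls depended on single libraries. The fall to the adult was lost without P0.5 Cre-positive replicate 1 (-5.23, adjusted p = 0.121) and held without each other library. The fall to P7.5 was lost without any 1 of its 4 libraries, with adjusted p = 0.298 and 0.107 without P0.5 replicates 1 and 2, and 0.0767 and 0.0908 without P7.5 replicates 1 and 2. The interaction from E17.5 to P0.5 was lost without 6 of its 8 libraries: it was 3.85 (adjusted p = 0.0767) without E17.5 Cre-positive replicate 1 and 5.55 (adjusted p = 0.0577) without E17.5 Cre-negative replicate 1, and among the P0.5 libraries 5.11 and 6.22 (adjusted p = 0.249 and 0.115) without Cre-positive replicates 1 and 2, and 5.54 and 5.79 (adjusted p = 0.101 and 0.0836) without Cre-negative replicates 1 and 2. With a pseudocount of 0.1 the fall to P7.5 (-4.80, adjusted p = 0.109) and the interaction (6.58, adjusted p = 0.136) were also lost. The adult zeros lie at a shallow depth, where 3 fragments of Sarm1 correspond to 0.846 and 0.484 FPKM in replicates 1 and 2; both limits are below the values of 2.04 and 1.67 FPKM at P7.5.

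Map3k12 (chromosome 15, 102497646 to 102517064, minus strand), which encodes DLK, was low throughout the FPKM libraries, with a highest value of 2.25 FPKM in adult retina replicate 2. In Cre-positive SC it was at 0 and 1.63 FPKM at E17.5, 0.338 and 0.0509 at P0.5, 0.101 and 2.18 at P7.5, and 0 in both adult libraries. Cre-negative SC was above 0 in 3 of 8 libraries, at 0.483 and 0.0357 FPKM at P7.5 and 1.36 in adult replicate 1. It passed no test. Its span overlaps with Pcbp2 on the opposite strand, as that of Nmnat2 does with Gm28960 and that of Casp9 with Cela2a and Ctrc. Use of the strand in counting is not stated, so reads of such partners cannot be told apart.

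Bax (chromosome 7, 45461697 to 45466898, minus strand) encodes the protein that opens the outer mitochondrial membrane, and it gave the largest difference between Cre-positive and Cre-negative SC among the members tested. At P0.5 it stood at 173.6 and 162.9 FPKM in Cre-positive SC, was listed at 0 in both Cre-negative SC libraries, and stood at 3.03 and 3.22 FPKM in retina. No other group came near these 2 libraries. In Cre-positive SC it was at 0 and 18.8 FPKM at E17.5, 0 and 0.138 at P7.5, and 0 in both adult libraries. In Cre-negative SC it was at 0 in both E17.5 libraries, 0 and 5.82 FPKM at P7.5, and 18.5 and 0.665 in the adult, of which the first exceeds and the second is below what 3 fragments would give in the adult Cre-positive libraries. Retina stayed between 0 and 6.42 FPKM, at 1.05 and 6.42, 3.03 and 3.22, 0 and 6.03, and 4.97 and 3.57 FPKM from E17.5 to the adult.

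Bax was 7.40 ± 1.51 higher in Cre-positive than in Cre-negative SC at P0.5 (adjusted p = 0.0031), a call that held without each of the 4 libraries in turn (adjusted p from 0.0243 to 0.0383). It was also 5.36 ± 1.38 higher than in retina (adjusted p = 0.0101), but this was lost without each of the 4 libraries, with adjusted p = 0.0973 and 0.063 without Cre-positive replicates 1 and 2, and 0.0571 and 0.0548 without retina replicates 1 and 2. Within Cre-positive SC, Bax rose by 5.25 ± 1.51 from E17.5 to P0.5 (adjusted p = 0.0239), fell by 7.31 ± 1.51 from P0.5 to P7.5 (adjusted p = 0.00366) and fell by 7.40 ± 1.51 from P0.5 to the adult (adjusted p = 0.00332). The rise was 3.09 (adjusted p = 0.161) without E17.5 replicate 1, 5.20 (adjusted p = 0.175) without P0.5 replicate 1 and 5.29 (adjusted p = 0.119) without P0.5 replicate 2. The fall to P7.5 was lost without P0.5 replicate 1 (-7.26, adjusted p = 0.0541), and the fall to the adult held without each library. With a pseudocount of 0.1 the rise (6.93, adjusted p = 0.0748) and the difference from retina (5.71, adjusted p = 0.1) did not pass.

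The changes of Bax after P0.5 differed from those of Cre-negative SC. The interaction was -8.69 ± 2.13 for P7.5 (adjusted p = 0.0136) and -9.91 ± 2.13 for the adult (adjusted p = 0.00651), and for the rise from E17.5 it was 5.25 ± 2.13 (adjusted p = 0.102). The interaction at P7.5 was lost without 5 of its 8 libraries: P0.5 Cre-positive replicates 1 and 2 (adjusted p = 0.119 and 0.0734), P0.5 Cre-negative replicates 1 and 2 (adjusted p = 0.0523 and 0.0504) and P7.5 Cre-negative replicate 2 (adjusted p = 0.0571). The interaction in the adult was lost without P0.5 Cre-positive replicate 1 (adjusted p = 0.0748). All these comparisons share the 2 Cre-positive libraries of P0.5, so they are not independent of each other. Bax overlaps with Gm45808 on the same strand, and a level of 3 fragments corresponds to 4.73 and 2.71 FPKM of Bax in the adult Cre-positive libraries.

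Casp9 (chromosome 4, 141793612 to 141815976, plus strand), the initiator caspase of the mitochondrial route, was even in the 2 P0.5 Cre-positive SC libraries, at 12.3 and 10.9 FPKM against 0 and 0.0233 in Cre-negative SC and 0.116 and 0.456 in retina. At the other stages single libraries carried it. Cre-positive SC held 55.2 and 0 FPKM at E17.5, 10.9 and 0.0253 at P7.5, and 0 in both adult libraries, and the highest retina value was 35.1 FPKM in P7.5 replicate 1 beside 0.558 in replicate 2. The difference from Cre-negative SC at P0.5, 3.64 ± 1.70, did not pass in the fit over all SC groups (limma, adjusted p = 0.143) and did in a fit to that stage alone (adjusted p = 0.00266). The change from P0.5 to the adult was -3.65 ± 1.70 (adjusted p = 0.138).

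Casp6 (chromosome 3, 129901425 to 129914103, plus strand), the executioner caspase, was above 0 in Cre-positive SC at E17.5 only, at 27.9 and 3.04 FPKM. Cre-negative SC was at 0 in both E17.5 libraries, and reached 0.113 FPKM in a single P7.5 library. In the shallow E17.5 Cre-negative replicate 1 a level of 3 fragments of Casp6 corresponds to 4 FPKM, above the 3.04 FPKM of Cre-positive replicate 2. Retina held 0 and 6.56 FPKM at E17.5, 0.766 and 0.0708 at P0.5, 0.199 and 0.226 at P7.5, and 0 in the adult. Casp6 differed by 3.43 ± 0.69 from Cre-negative SC at E17.5 (adjusted p = 0.0354) and fell by 3.43 ± 0.69 to P0.5 (adjusted p = 0.00315), with an interaction of -3.43 ± 0.97 (adjusted p = 0.023). It entered the SC fit only through these 2 libraries, so that it had to differ there if it was tested at all. The difference at E17.5 no longer passed without Cre-negative replicate 1, where it was still 3.43. It also did not pass with no filter on low values (limma, adjusted p = 0.0761), with a replicate block (adjusted p = 0.126) and in a fit to that stage alone (adjusted p = 1). The fall was lost without P0.5 Cre-positive replicate 1 (adjusted p = 0.0786), and the interaction without each P0.5 library, with adjusted p = 0.138 and 0.105 for Cre-positive replicates 1 and 2, and 0.0719 and 0.0704 for Cre-negative replicates 1 and 2.

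**Figure D2:**
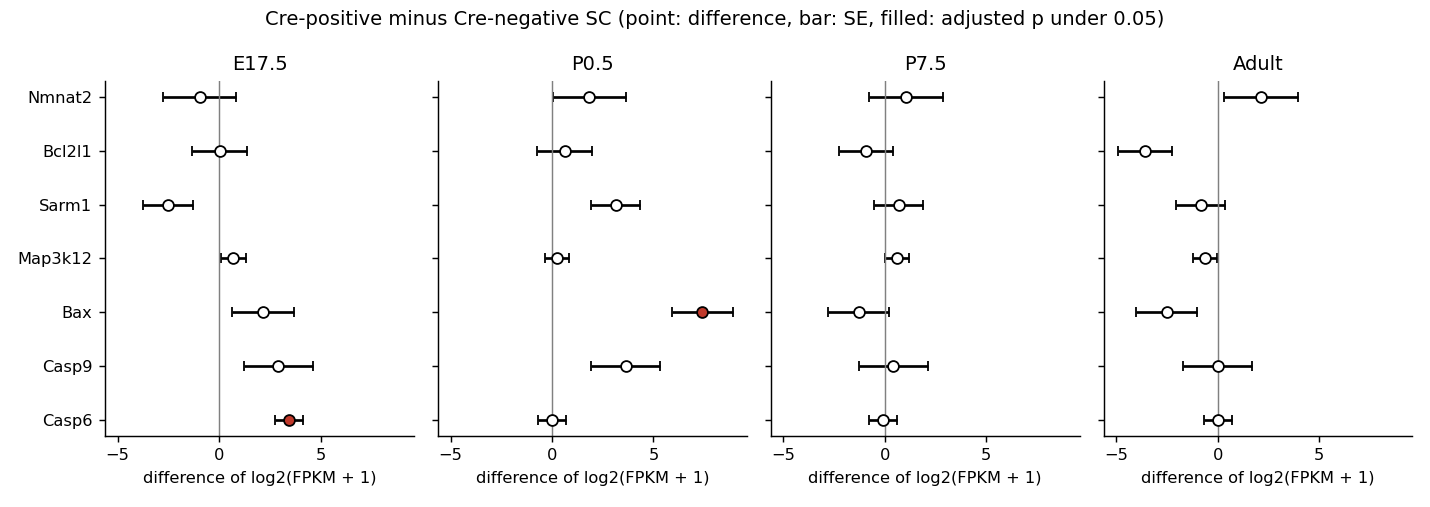
Difference of log2(FPKM + 1) between Cre-positive and Cre-negative SC (horizontal axis) for the 7 genes tested, at each stage, with bars of 1 SE from limma and 2 libraries per group; filled points have an adjusted p under 0.05. Only Casp6 at E17.5 (3.43) and Bax at P0.5 (7.40) are filled, and no gene is at P7.5 or in the adult.

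These counts have to be read against all genes. At E17.5, 1 of 7 members (Casp6, higher) passed the test of Cre, against 1.57% of all 5983 genes tested, but Casp6 was tested only because of those E17.5 Cre-positive libraries, and nothing is read from this count. At P0.5, 1 of 7 (Bax, higher) passed, against 32.5% of all genes. Of all genes, 21.2% reached the filter only through the P0.5 Cre-positive libraries, and 0 of the members did. Among the other genes 13.1% were higher and 5.51% lower, so the share of members higher (14.3%) lay near that of like genes. At P7.5 and in the adult 0 of 7 passed, against 0% and 0.15% of all genes, and over all stages 0 of 7 against 12.4%; at an unadjusted p under 0.05 limma gave 0, 1 and 1 members in these 3 comparisons, against 1.4%, 3.08% and 22.8% of all genes. From E17.5 to P0.5 in Cre-positive SC, 1 member rose (Bax) and 1 fell (Casp6, with the limit given for E17.5) of 7, against 26.9% of all genes that changed. Among the genes that did not depend on the P0.5 Cre-positive libraries, 10.5% rose and 2.29% fell. From P0.5 to P7.5, 3 of 7 fell (Bax, Bcl2l1 and Sarm1), against 29.8%, and from P0.5 to the adult the same 3 of 7 fell, against 32.1%. Among the genes that did not depend on the P0.5 Cre-positive libraries, 14.9% and 17.2% fell. Between P7.5 and the adult 0 of 7 changed, against 0.0836%, and at an unadjusted p under 0.05 limma gave 0 members, against 2.14% of all genes. The median difference of all genes was -1.19 from P0.5 to P7.5 and -1.45 from P0.5 to the adult, so the typical gene moved down with these members. In the interactions of stage with Cre, 2 of 7 members passed from E17.5 to P0.5 (Sarm1, and Casp6 with the limit given above), 1 (Bax) from P0.5 to P7.5, 0 from P7.5 to the adult and 1 (Bax) from P0.5 to the adult, against 27.1%, 21.5%, 0% and 22.1% of all genes. Among the genes that did not depend on the P0.5 Cre-positive libraries, 9.35% were more positive and 4.09% more negative from E17.5 to P0.5. From P0.5 to P7.5 and to the adult, 5.2% and 5.83% of them were more negative. From P7.5 to the adult limma gave 0 members at an unadjusted p under 0.05, against 2.24% of all genes.

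In retina 0 of 4 members changed between any stages tested, against 0% of the 4080 genes tested from E17.5 to P0.5, 0.0735% from P0.5 to P7.5, 0% from P7.5 to the adult and 0.441% from P0.5 to the adult. At an unadjusted p under 0.05 limma gave 1 member, Bcl2l1, from P0.5 to P7.5 and from P0.5 to the adult, against 2.43% and 6.4% of all genes, and 0 in the other 2 comparisons, against 0.833% and 1.4%. Bcl2l1 differed by -2.80 ± 0.90 between the adult and P0.5 (adjusted p = 0.215), was -4.61 without adult replicate 2 (adjusted p = 0.0032) and -0.98 without adult replicate 1 (adjusted p = 0.752). Sarm1 differed by -1.70 ± 1.74 over the same interval (adjusted p = 0.991). Scaling the libraries by their median ratio moved the median of all genes by -0.50 here, and Bcl2l1 to -3.66 and Sarm1 to -2.51.

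Between axons and retina, 0 of 7 members passed at E17.5, 1 of 7 (Bax, higher in Cre-positive SC) at P0.5, and 0 of 7 at the later stages, against 1.31%, 34.7%, 0.0158% and 0.0949% of the 6321 genes tested. At P0.5, among the genes that did not depend on the P0.5 Cre-positive libraries, 20.1% were higher and 2.46% lower. At an unadjusted p under 0.05 E17.5 gave 2 members, P7.5 gave 1 and the adult gave 2, each of them lower in Cre-positive SC, against 10.9%, 3.13% and 7.78% of all genes. Bcl2l1 was lower in Cre-positive SC than in retina in 2 of 2 libraries at each stage, with a difference of -1.96 ± 1.32 at P0.5 (adjusted p = 0.312) and of -5.24 ± 1.32 at P7.5 (adjusted p = 0.665, and 0.00964 in a fit to that stage alone). For Sarm1 the difference was -3.36 ± 1.23 in the adult (adjusted p = 0.467).

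NMNAT2 and SARM1 are known to act against each other in the axon. Which of 2 mRNAs of the same library is the higher does not depend on scaling between libraries. The size of the difference does depend on it where an mRNA is near 0, because 1 is added to each FPKM. The difference Nmnat2 minus Sarm1 in log2(FPKM + 1) was -0.84 and -0.95 in Cre-positive SC at P0.5, 1.90 and 3.83 at P7.5, and 6.08 and 0 in the adult, where both mRNAs were at 0 in replicate 2. At E17.5 the Cre-positive libraries gave 4.25 and -0.30. Sarm1 was thus the higher mRNA in both P0.5 libraries and in 1 of 2 at E17.5, and Nmnat2 in both P7.5 libraries and in the adult library that held either. Cre-negative SC gave Nmnat2 above Sarm1 in 6 of 8 libraries, from -0.62 to 4.55, including 0.48 and 4.55 at P7.5, so Nmnat2 also stood above Sarm1 in SC without a tag. Retina gave the opposite order, with Sarm1 above Nmnat2 in 7 of 8 libraries, from -5.29 at E17.5 to 0.15 at P7.5. For the mitochondrial route, Bcl2l1 stood above Bax in all 24 libraries. The difference was lowest in the Cre-positive SC libraries of P0.5, at 3.88 and 2.33, and from 4.58 to 11.02 in the others. Bax was at 0 in 10 of the 24 libraries, where the difference is the level of Bcl2l1 alone.

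**Figure D3:**
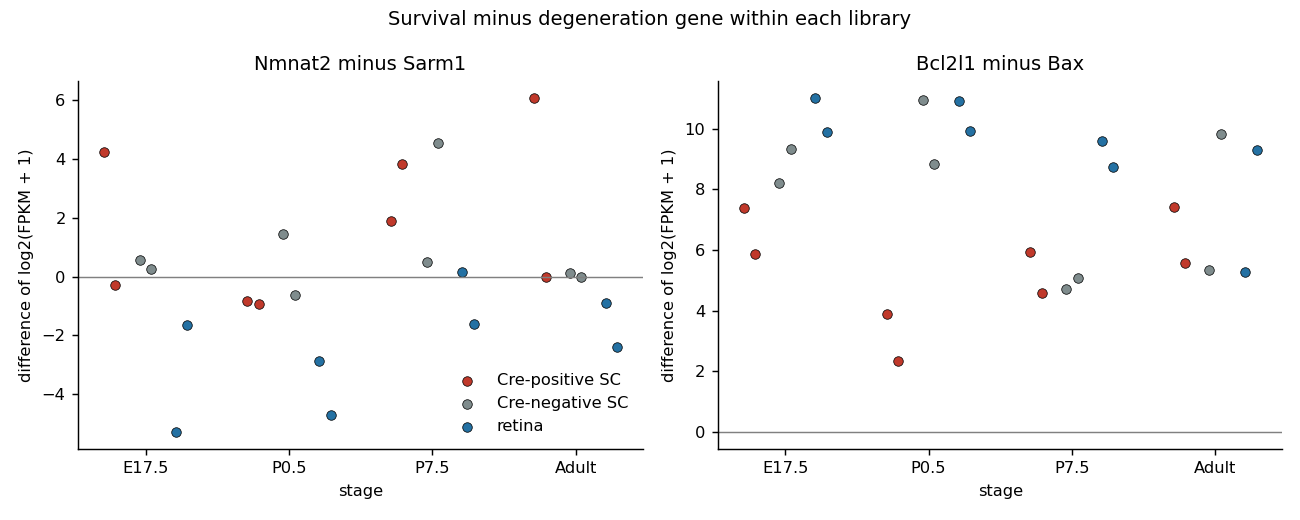
Difference of log2(FPKM + 1) within each library (vertical axis) between Nmnat2 and Sarm1 (left) and between Bcl2l1 and Bax (right), by stage (horizontal axis), with 1 point per library. On the left retina lies between -5.29 and 0.15, and on the right every point is above 0 and the 2 Cre-positive SC libraries of P0.5, at 3.88 and 2.33, are the lowest. Where 1 gene of a pair is at 0, the size of the difference is the level of the other gene alone.

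The other genes of the same pathways were read against all genes in the same way. Of 84 further genes of NAD metabolism and programmed axon degeneration, JNK signaling, caspases and their regulators, the BCL2 family, calpains, death receptors and inositol phosphate recycling, 83 are listed and 37 could be tested in SC. At P0.5, 14 of these 37 (37.8%) were higher in Cre-positive than in Cre-negative SC and 0 lower, against 28.1% and 4.35% of all genes, with a median difference of 1.55 against 0.78 over all genes. Of the 37, 10 reached the filter on low values only through the P0.5 Cre-positive libraries, as 21.2% of all genes did, and 9 of the 14 calls were among them, which were bound to differ there. Among the other 27 genes 5 were higher (18.5%), against 13.1% of all genes that did not depend on these libraries. Without 1 library the number higher was 2 (Cre-positive replicate 1), 5 (Cre-positive replicate 2) or 9 (either Cre-negative replicate). Among the lists, 3 of 4 tested genes of NAD metabolism and programmed axon degeneration were higher, 3 of 6 of the BCL2 family, 3 of 6 of caspase activation and inhibition, 3 of 8 of JNK signaling, 1 of 2 calpains, and 0 of 4 each of the death receptors and of inositol phosphate recycling.

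The 10 genes with the smallest p were Bag1, Bad, Faf1, Bid, Apaf1, Capn2, Mapk8ip3, Nadk, Nampt and Mapk8ip2, and all but Mapk8ip2 were tested only through the P0.5 Cre-positive libraries, so their levels are given as a description. Apaf1, which activates caspase-9, stood at 5.28 and 3.18 FPKM in Cre-positive SC at P0.5 and was listed at 0 in both Cre-negative libraries. The pro-apoptotic BH3 proteins Bid and Bad stood at 59.3 and 16.2 and at 22.1 and 32.5 FPKM and were listed at 0 in the background. Bag1, a co-chaperone that binds BCL2 and is known as pro-survival, stood at 53.6 and 29.8 FPKM against 0. These 4 genes were above the background in both libraries, which the filter and their choice by the smallest p had fixed in advance. Nampt, the rate-limiting enzyme of NAD salvage, stood at 30.1 and 8.0 FPKM against 0, and Nadk, which phosphorylates NAD, at 29.5 and 3.08 FPKM against 0.0536 and 0. The JNK scaffold Mapk8ip3 stood at 65.0 and 45.02 FPKM, against less than 0.1 FPKM in the background. Its relative Mapk8ip2, which did not depend on these libraries for its place in the fit, stood at 216 and 89.3 FPKM, also against less than 0.1 FPKM (7.03 ± 1.81, adjusted p = 0.0121).

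From E17.5 to P0.5 in Cre-positive SC, 10 of 37 rose and 1 fell, against 25.1% and 1.81% of all genes. Of the 10, 9 were genes that the P0.5 Cre-positive libraries alone brought into the fit. Among the other 27 genes 1 rose and 1 fell (3.7% each), against 10.5% and 2.29% of genes that did not depend on these libraries. From P0.5 to P7.5 and to the adult 13 and 15 fell, against 29.2% and 31.2% of all genes, and 1 rose. Of those that fell, 9 each were again genes brought in by these libraries alone. Among the other 27 genes 4 and 6 fell (14.8% and 22.2%), against 14.9% and 17.2% of like genes. In each interval 1 of the 27 rose (3.7%), against 0.636% and 1.17%. Bag1, Bad, Faf1, Bid, Apaf1, Capn2, Nadk and Nampt were listed at 0 in both P7.5 and both adult Cre-positive libraries. The adult Cre-positive SC library without run-off, described below, nevertheless held 500 reads of Bad, 44 of Capn2 and 10 of Nampt, and none of the other 5. The gene that went the other way was Birc6, a large inhibitor of apoptosis that ubiquitinates caspases, which stood at 101 and 279.8 FPKM at E17.5, 9.47 and 12.5 at P0.5, 238 and 165 at P7.5, and 248 and 97.0 in the adult (-3.83 ± 1.01, adjusted p = 0.0151, from E17.5 to P0.5, and 4.06 ± 1.01, adjusted p = 0.0107, to P7.5). Without P0.5 Cre-positive replicate 1 the rise to P0.5 was called for 2 genes, the fall to P7.5 for 2 and the fall to the adult for 1, and without replicate 2 for 3, 4 and 4 genes, and Birc6 was called in none of these.

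At E17.5, 0 of 37 were higher and 1 lower than in Cre-negative SC (Isyna1, an inositol phosphate synthase, 0.781 and 0 against 45.4 and 5.38 FPKM, -3.69 ± 0.74, adjusted p = 0.0354). The number lower was 0 without any 1 of the other libraries of that comparison and 5 without Cre-negative replicate 2. At P7.5 and at the adult stage 0 of 37 differed, and over all stages 7 were higher (18.9%, against 10.1% of all genes). Each of these 7 was a gene that the P0.5 Cre-positive libraries alone brought into the fit, so nothing is read from this count. In the interactions with Cre 11 passed from E17.5 to P0.5, each more positive in Cre-positive SC (29.7%, against 23.9% of all genes), and 8 and 10 passed from P0.5 to P7.5 and to the adult, each more negative (21.6% and 27%, against 18.7% and 19.3%). Of these, 9, 8 and 8 were genes that the P0.5 Cre-positive libraries alone brought into the fit. Among the other 27 genes 2, 0 and 2 passed (7.41%, 0% and 7.41%), against 9.35%, 5.2% and 5.83% of like genes in the same direction. Between axons and retina 16 of 41 were higher in Cre-positive SC at P0.5 (39%, against 32.7% of all genes). Of the 16, 7 were again genes that the P0.5 Cre-positive libraries alone brought into the fit. Among the other 31 genes 9 were higher (29%), against 20.1% of like genes. Of the 41, 1 was lower (Birc5, an inhibitor of apoptosis of dividing cells, named after its values were seen, 0 in both against 2.81 and 0.788 FPKM). The number higher was 7 and 11 without Cre-positive replicates 1 and 2, and it was 0 at the other stages.

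Markers of cell types were measured beside these results. At P0.5 the 11 ganglion cell markers summed to less in Cre-positive SC, at 301 and 111 FPKM with 6 above 0, than in Cre-negative SC, at 758 and 200 FPKM with 4 above 0. Between Cre-positive and Cre-negative SC at P0.5, the 8 photoreceptor markers were at 0 in all 4 libraries, and of 7 oligodendrocyte markers only Cnp was above 0, at 84.7 and 86.6 against 86.2 and 48.1 FPKM. The summed level of 7 astrocyte markers was 67.3 and 58.2 against 15.9 and 38.3 FPKM, with 5 and 4 of 7 above 0 and Gfap and Aqp4 at 0 in both groups. Of 6 microglial markers 1 was above 0 in each group, at 0.747 and 1.36 against 77.0 and 43.2 FPKM. It was a different gene in each group, so these values do not compare 1 marker between the groups. In adult Cre-positive SC the oligodendrocyte markers summed to 735 and 990 FPKM (3 of 7 above 0, with Mog, Mag, Mobp and Cldn11 at 0) and the astrocyte markers to 617 and 566 (5 of 7 above 0). Adult Cre-negative SC gave 266 and 4147.7 FPKM for the oligodendrocyte markers (4 of 7 above 0) and 186 and 253 for the astrocyte markers (5 of 7). The ganglion cell markers summed to 118 and 28.8 FPKM in adult Cre-positive SC, against 601 and 0 in Cre-negative SC. The part of these cells in the results was not tested. In such bulk samples fewer cells or axons and less mRNA in each cannot be told apart.

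The genes whose level was most like that of Nmnat2 over the 24 libraries, among those of the SC fit, included Cant1, Zfp704, Kif2a and Fli1, with Pearson's r of 0.780, 0.770, 0.763 and 0.755. For Sarm1 they were Snrpb, Lmo4, Krtcap2, Hcn3 and Meis1, with r of 0.847, 0.826, 0.807, 0.80 and 0.792. The libraries share their groups and differ in depth, so these are descriptions without a test.

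The run-off experiment asks whether an mRNA was held by elongating ribosomes. In run-off the tissue lysate is incubated in translating reticulocyte lysate with harringtonine and 4E1RCat, which block new initiation, so that moving ribosomes reach the end of the message and come off it before purification. The reads on genes were 3262914 without and 349395 with run-off in Cre-positive SC (10.7%), and 4686284 and 315009 in retina (6.72%). Each condition is 1 library, so there is no replicate check and no test, and the 95% intervals given (exact Poisson for reads, exact binomial for ratios) cover counting error only. Cre-negative SC was not part of this experiment, so SC reads brought down without a tag cannot be told apart from those of tagged ribosomes. Reads were compared without scaling, as in the study, and also as CPM, counts scaled to the same total of reads on genes.

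Of the 9 members 7 had a read in the SC libraries, 6 of them had fewer with run-off, against 84.9% of all 5871 genes with a read, and 1 had more. In retina 8 had a read, 7 had fewer, against 92.1% of 9464 genes, and 1 had more. On the CPM scale 5 members were lower in SC and 6 in retina, against 72.3% and 71.9% of all genes. Losing reads was therefore the rule for the members as it was for all genes.

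Nmnat2 lost all of its reads in SC, from 1168 (95% interval 1102 to 1237) without run-off, where it ranked 297th of all genes, to 0 with run-off, which allows up to 3 reads. Its CPM ratio of run-off to no run-off was 0, with an upper limit of 0.0295. In retina it went from 133 reads to 1, a CPM ratio of 0.112 (0.00281 to 0.634). Bcl2l2 went from 88 reads to 0 in SC (CPM ratio 0, up to 0.4) and from 26 to 8 in retina (CPM ratio 4.58, 1.79 to 10.4). Casp9 went from 172 reads to 6 in SC (CPM ratio 0.326, 0.118 to 0.724) and from 495 to 4 in retina (0.12, 0.0326 to 0.31). The intervals of these 3 CPM ratios lay below 1 in SC, and those of Nmnat2 and Casp9 did so in both tissues, while that of Bcl2l2 lay above 1 in retina.

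Bcl2l1 kept 86 of 603 reads in SC, 14.3%, which is more than the library as a whole (CPM ratio 1.33, 1.05 to 1.67), and 9 of 350 in retina, 2.57%, which is less (0.383, 0.173 to 0.735). Map3k12, which was near 0 in the FPKM libraries, had 478 reads in SC and 533 in retina without run-off and kept 28 and 32, or 5.86% and 6.00%, with CPM ratios of 0.547 (0.36 to 0.801) and 0.893 (0.605 to 1.28). Impa1 went in opposite directions, from 0 to 43 reads in SC and from 181 to 5 in retina. Bax had 2 reads without run-off in each tissue, and with it 0 in SC and 47 in retina. Sarm1 had no read in either SC library and went from 10 to 0 in retina, and Casp6 had no read in any of the 4 libraries. A count of 0 allows up to 3 reads, or 0.919 CPM without and 8.59 CPM with run-off in SC.

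**Figure D4:**
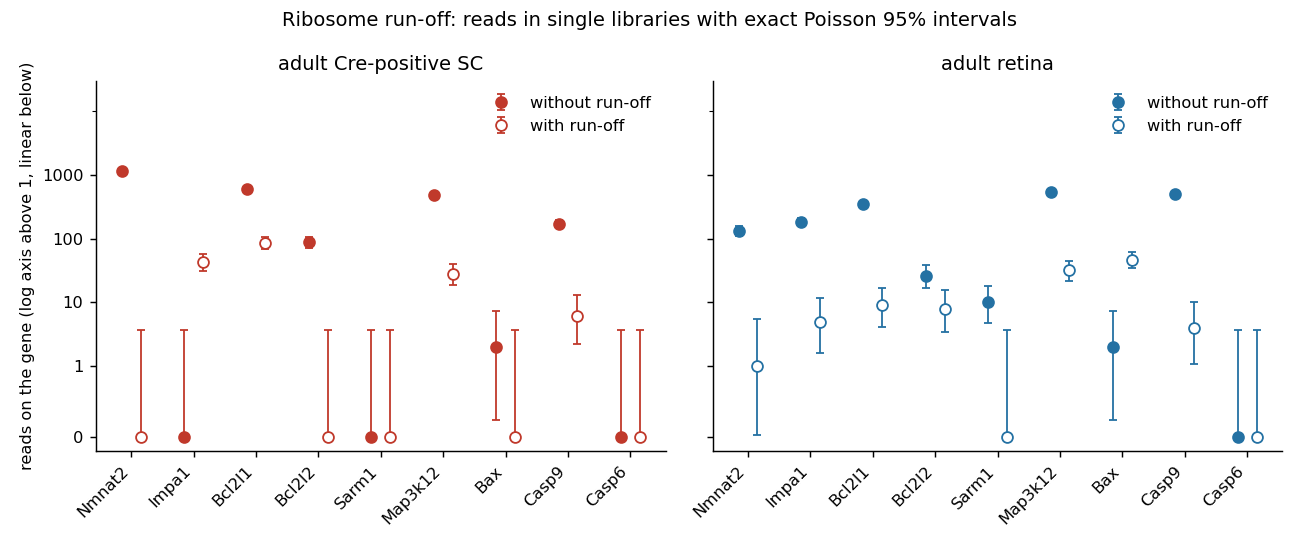
Reads on each of the 9 genes (vertical axis, logarithmic above 1 read and linear below) in adult Cre-positive SC (left) and adult retina (right), without run-off (filled) and with run-off (open), 1 library each, with exact Poisson 95% intervals. In SC Nmnat2 goes from 1168 reads to 0 and Bcl2l1 from 603 to 86, while Impa1 appears with 43 reads in SC with run-off and Bax goes from 2 to 47 in retina.

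The 2 adult experiments gave different pictures of the same genes. Without run-off, Cre-positive SC held 172 reads of Casp9, 478 of Map3k12 and 88 of Bcl2l2, which were all listed at 0 in both adult Cre-positive FPKM libraries, while Sarm1 and Casp6 were at 0 in both experiments. Of the 83 further pathway genes, 43 had a read in SC and 54 in retina. Of these, 41 and 51 had fewer with run-off, against 84.9% and 92.1% of all genes with a read. Those with the most reads in SC were Birc6 (4197 reads to 654), Bace1 (3538 to 148), Mapk8ip3 (1714 to 2), Mapk10 (1471 to 101), Capns1 (721 to 251) and Cflar (553 to 2). The JNK scaffold Mapk8ip3 and Cflar, an inhibitor of caspase-8, lost nearly all of their reads, and the calpain subunit Capns1 kept 34.8% (CPM ratio 3.25, 2.8 to 3.76). In retina they were Birc6 (4947 to 1311), Bace1 (2081 to 111), Xiap (446 to 12), Bnip3l (211 to 2), Capns1 (208 to 3) and Mycbp2 (202 to 114). Mycbp2, the ubiquitin ligase PHR1 that removes NMNAT2 protein, kept 56.4% of its reads (CPM ratio 8.4, 6.61 to 10.6).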

How the data were processed

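The authors deposited a table of FPKM values for each of 24 libraries and of whole read counts for each of 4 run-off libraries, with 23995 genes by symbol, 4 of them with a missing entry and none of these a member. Per the submitters' notes, reads of PCR-amplified cDNA were aligned to mm10 with TopHat2 2.0.12, FPKM came from Cufflinks 2.2.1 and counts from HTSeq 0.6.1p1. Groups are those of the labels, whose stages E17.5 and P0.5 some titles round. The members and gene lists were chosen with earlier results of these data known. Tests used limma 3.58.1 with statmod 1.5.0 in R 4.3.3, with trend and robust variance, on log2(FPKM + 1), for genes with at least 1 FPKM in at least 2 libraries, with 1 fit over all SC groups, 1 over retina and 1 over Cre-positive SC with retina. The study used NOISeq, which was not used here. Alternatives were a pseudocount of 0.1, no filter, median-ratio scaling, a replicate block, a fit to 1 stage and leaving out each library. On data simulated for the test of Cre at P0.5 (5216 genes, 200 changed), 26% of changes of 3 and 87% of changes of 8 on the log2 scale were recovered. Depth was estimated from the spacing of low FPKM values times transcript length and limits how low a level can be seen. Run-off reads were given exact 95% intervals, and other values were computed in Python 3.11.15 with pandas 2.3.3, numpy 2.4.6, scipy 1.17.1 and matplotlib 3.10.9. Named genes were the members, further pathway genes past the threshold in a comparison (at most 10 a comparison, by the smallest p), the 6 of these lists with most reads per tissue in run-off, and the 5 most correlated with Nmnat2 and with Sarm1, of which some items are not reported here. Positions come from GENCODE on the same build, and protein sequences were not used here. Since Bcl2l2 was at 0 in all libraries, Bax was set against Bcl2l1 alone and not against the mean of Bcl2l1 and Bcl2l2 that had been planned.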

Additional observations from a re-analysis of the deposited data

Results flagged for a closer look

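Changes between stages that differed between Cre-positive and Cre-negative SC by the interaction term of limma are singled out here. From E17.5 to P0.5 these were Sarm1, with an interaction of 5.67, and Casp6, with -3.43, the latter through the 2 E17.5 Cre-positive libraries that alone brought it past the filter. From P0.5 to P7.5 and to the adult it was Bax, with -8.69 and -9.91. Each of the 4 was lost without at least 1 of the libraries named beside it in the report.

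In the run-off libraries 2 members were flagged because the change in their reads differed between the 2 tissues. This difference was not tested since each condition is 1 library. Impa1 went from 0 to 43 reads in SC and from 181 to 5 in retina. Bax went from 2 to 47 reads in retina, while its step from 2 to 0 in SC is within counting error (CPM ratio 0, up to 49.7) and shows no direction.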

How the results depend on the processing

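With single genes, 285 of the values under alternative settings kept their direction and their side of the threshold, 46 kept their direction but no longer passed, 9 came to pass and 3 changed direction, each of the last in a difference that had not passed. These 3 were Nmnat2 in the adult against Cre-negative SC (-0.90 without adult Cre-positive replicate 1, up to 5.19 on leaving out others), Nmnat2 from P0.5 to the adult (1.19 without adult Cre-positive replicate 2, down to -4.89) and the interaction of Bcl2l1 from P0.5 to P7.5 (0.01 without P7.5 Cre-negative replicate 2, down to -3.11). The number of members called against Cre-negative SC at E17.5, 1, became 0 with no filter, with the replicate block or in a fit to that stage alone, and at P0.5 it became 3 in a fit to that stage alone. With a pseudocount of 0.1 it became 1 for the change from E17.5 to P0.5 and for its interaction, and 0 for Cre-positive SC against retina at P0.5. The latter was 3 in a fit to that stage alone, and 1 at P7.5. Leaving out 1 library at a time gave 0 to 2 members at E17.5 against Cre-negative SC, 0 to 1 over all stages, 0 to 2 from E17.5 to P0.5, 0 to 2 from P0.5 to P7.5, 1 to 3 from P0.5 to the adult, 0 to 2, 0 to 1 and 0 to 1 for the corresponding interactions, 0 to 1 in retina from P0.5 to the adult, and for axon against retina 0 to 2 at E17.5 and 0 at P0.5. The cause of these changes was not tested. Median-ratio scaling turned the retina calls over all genes, 3 from P0.5 to P7.5 and 18 from P0.5 to the adult, into 0, and moved the share called higher between axon and retina in the adult from 100% to 66.7%. The shallow adult SC libraries limit what could be seen there.

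Replicate numbers are shared between groups. Same-numbered Cre-positive and Cre-negative SC libraries deviated together at E17.5, P0.5 and P7.5, with r of 0.565, 0.427 and 0.456. In the adult r was 0.081. For Cre-positive SC and retina r was 0.15, 0.449, 0.526 and -0.0981 from E17.5 to the adult. The paper states that 1 litter gave both genotypes, and that axons and retina were compared within the same animals. The labels do not name the pairs. The main fits therefore left pairing out, and the replicate block was run as an alternative. With the replicate block, Casp6 against Cre-negative SC at E17.5 (adjusted p = 0.126 by limma) and Bcl2l1 from P0.5 to the adult (adjusted p = 0.0567) no longer passed. Bax at P0.5 kept an adjusted p of 0.00915 against Cre-negative SC and of 0.00922 against retina by limma. No other call of a member named here changed.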
